A study of Mus musculus with 12 samples.

Results

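Interferon signalling factors and their antiviral effector genes were followed in the hearts of mdx and control mice. The genes were chosen by name, as STAT and IRF factors and interferon targets that are not GTPases, and the rule uses no measured value, although earlier results of these data were known when the list was drawn up. Of the 9 genes named, 8 had a probe set (the group of short probes that reports 1 transcript) annotated to that gene alone. They were the factors Stat2, Irf9, Irf1 and Irf7 and the effectors Ifitm3, Ifi27l2b, Ifit1 and Ifit3. Stat2 had 2 probe sets, which gave 9 probe sets in all out of 22690 on the array. The ninth gene, Isg15, is a ubiquitin-like modifier whose probe set was annotated to 2 genes, and no value is given for it.

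Type I interferons bind a receptor pair that activates the kinases JAK1 and TYK2. These phosphorylate STAT factors, STAT2 among them, and STAT2 acts with IRF9 in the factor ISGF3, which binds the interferon-stimulated response element (ISRE) in the promoters of antiviral genes. Type II interferon acts at a different element, the gamma-activated site (GAS), and IRF1 is among the genes it induces. IRF7 is itself interferon-induced and drives further interferon production. In heart, myocytes and resident immune, endothelial and stromal cells can all respond to interferon.

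The arrays held total RNA from heart muscle of control mice and of mdx mice, which carry a point mutation in the dystrophin gene Dmd and so lack full-length dystrophin in every muscle from birth. Hearts were taken at 8 weeks and at 10.5 months of age, with 3 arrays for each of the 4 groups. The series title calls the controls wild type. Their strain, the sex of the mice, the part of the heart sampled and any pooling of animals were not given, so that p-values measure only the spread between these samples. Signal is given in units of a scaled array, on which the mean signal, trimmed at both ends, is 500.

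Dmd lay between 607 and 839 units on the 6 control arrays and between 159 and 286 on the 6 mdx arrays, so that no array went against its genotype label. All 9 ventricular marker genes were measured above the filter used for testing, a mean of at least 100 units over the 12 arrays. Of 8 fast skeletal and extraocular markers with a probe set, only Ckm, which heart also expresses, passed it. This bears on the tissue, because extraocular muscle stands among the keywords of these records beside titles and a source that say heart. The brightest probe sets reached further on 4 arrays (control replicate 2 and mdx replicates 1 and 2 at 8 weeks, and mdx replicate 3 at 10.5 months) than on the others. At 8 weeks mdx replicate 3 stood apart in the other direction, with the highest median signal of the 12 arrays (665.8 in deposited units, against 532.8 to 600.3 elsewhere) and the lowest 99th percentile.

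Promoters are shown for members whose window holds a core element that an interferon-activated factor is known to bind. RefSeq windows of GRCm38.p6, from 250 bases before to 50 bases after an annotated start, were available for 8 of the 9 genes (not for Ifi27l2b). They were searched on both strands for the ISRE core GAAANNGAAA, whose other strand reads TTTCNNTTTC, and for the GAS core TTCNNNGAA, which reads alike on both strands. Capitals mark the matches, and the strand printed is that of the gene. The stretches lie upstream of the start for Ifit1 (chr19:34640770-34640828, plus strand), Ifit3 (chr19:34583358-34583431, plus strand), Stat2 (chr10:128270261-128270300, plus strand) and Irf1 (chr11:53769914-53769942, plus strand), and just past the start for Ifitm3 (chr7:141010716-141010742, minus strand).
Ifit1: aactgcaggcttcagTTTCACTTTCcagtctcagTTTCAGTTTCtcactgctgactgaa
Ifit3: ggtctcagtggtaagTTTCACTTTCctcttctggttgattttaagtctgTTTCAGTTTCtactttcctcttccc
Stat2: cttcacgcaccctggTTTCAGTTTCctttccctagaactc
Ifitm3: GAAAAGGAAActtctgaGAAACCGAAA
Irf1: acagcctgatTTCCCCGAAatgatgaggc
The capitals are ISRE cores in the first 4 stretches and a GAS core in that of Irf1.

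Ifit1 carried ISRE cores beginning 104 and 85 bases before its start and Ifit3 carried them 156 and 122 bases before. The annotated start used for Ifit3 lies within the gene, whose span begins at chr19:34583119, so its cores lie inside that span. The pair of cores in Ifit1 and the pair in Ifit3 have the same letters in the same order. Stat2 had 1 core, 222 bases before its start. In Ifitm3 the cores began at bases 3 and 20 of the transcript, and a GAS core at base 14 overlapped the second of them. With Isg15, which had 3 overlapping ISRE cores, 5 of the 8 genes with a window held an ISRE core, in 5 of their 10 windows. Among all 32851 promoter windows 3.44% held one. A GAS core was found in Irf1, 90 bases before the first of its 2 starts, and in Ifitm3, which made 2 of 10 windows against 8.3% of all windows. Neither core was in the windows of Irf9 (2 starts) or Irf7.

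**Figure D1:**
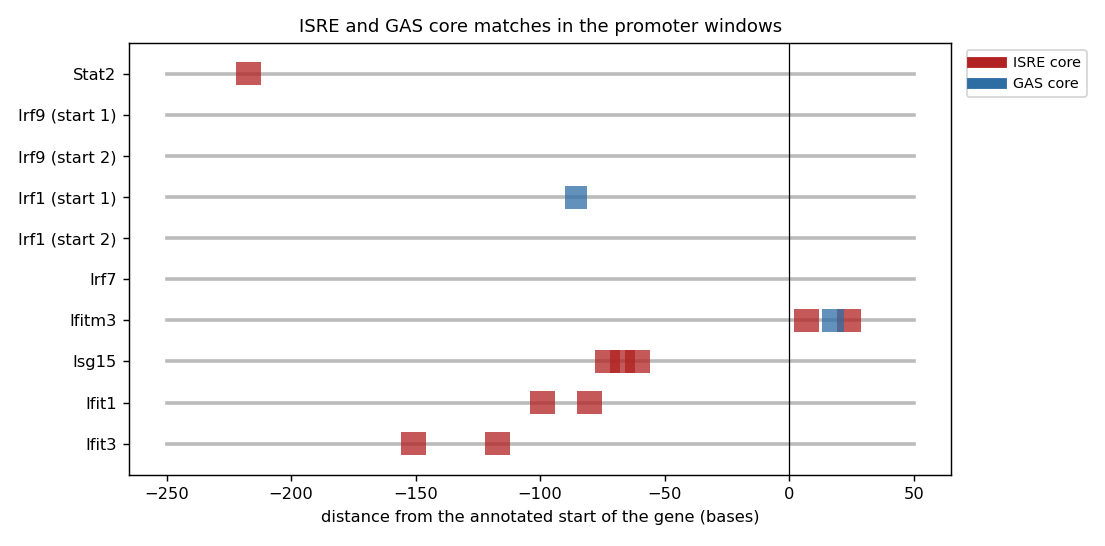
Matches to the ISRE core (red) and the GAS core (blue) in the promoter windows of 8 genes, drawn to scale; the x axis is the distance in bases from the annotated start and each grey line is 1 window. Ifit1 and Ifit3 each have a pair of ISRE cores upstream, while the cores of Ifitm3 lie past its start.

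At 8 weeks the question was whether interferon factors and effectors differed between young mdx and control hearts. Ifi27l2b, which encodes a small interferon-inducible membrane protein of the ISG12 family, rose, and it was the only member to pass the test. It entered the test only through the mdx arrays of this age, since its mean over the other 9 arrays, 76.7 units, lies below the filter of 100, so that its call is not counted as support for the group. In the fit with no filter, which tested it whatever its level, it passed as well (limma adjusted p = 0.0147). The antiviral genes Ifitm3, Ifit1 and Ifit3 and 1 of the 2 Stat2 probe sets had higher signals on every mdx array than on every control array, but their differences did not pass. All 8 members, Ifi27l2b included, had a positive log2 difference, with a median of 0.57, against -0.01 over the 8852 genes tested.

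Ifi27l2b gave 73.4, 79.0 and 84.6 units in controls and 256, 283 and 440 in mdx hearts. The groups were well apart, and the controls lay below the filter. On the log2(signal + 32) scale, which is used throughout, its difference was 1.66 ± 0.26 (SE, n = 3 arrays a group, limma adjusted p = 0.00979). Its probe set is of the x_at class, in which some probes may also match related sequences. The related gene Ifi27l2a had overlapping groups (706, 1150 and 1437 in mdx, against 1787, 920 and 1464 in controls, log2 -0.34 ± 0.43, adjusted p = 0.726).

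Ifitm3 encodes a membrane protein that blocks the fusion of viruses with endosomes. Its signals were 3669, 3489 and 3519 on control arrays and 6454, 5012 and 5014 on mdx arrays, groups that did not overlap. This was a difference of 0.61 ± 0.17 on the log2 scale, just outside the threshold (limma adjusted p = 0.0876). Leaving out any single 8-week array left it between 0.49 and 0.67. Of its relatives, Ifitm2 was lower on every mdx array (-0.52 ± 0.18, adjusted p = 0.159) and Ifitm1 overlapped between groups (0.11 ± 0.21, adjusted p = 0.830).

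Ifit1 and Ifit3 encode proteins with tetratricopeptide repeats, of which IFIT1 binds viral RNA that lacks the host's cap methylation. Ifit1 gave 442, 396 and 362 on control arrays and 518, 501 and 1558 on mdx arrays. Ifit3 gave 565, 396 and 487 on control arrays and 662, 609 and 2004 on mdx arrays. For both genes mdx replicates 1 and 2 lay just above the controls, and mdx replicate 3 was far above all others. The log2 differences were 0.85 ± 0.37 for Ifit1 and 0.92 ± 0.41 for Ifit3 (limma adjusted p = 0.251 and 0.259). Leaving mdx replicate 3 out gave 0.33 and 0.39 (adjusted p = 0.527 and 0.545). Mouse Ifit3 has a close copy, Ifit3b, and their transcripts may not be told apart by this probe set. Ifit2, a further gene of the family, stood at 0.20 ± 0.36 (adjusted p = 0.811).

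**Figure D2:**
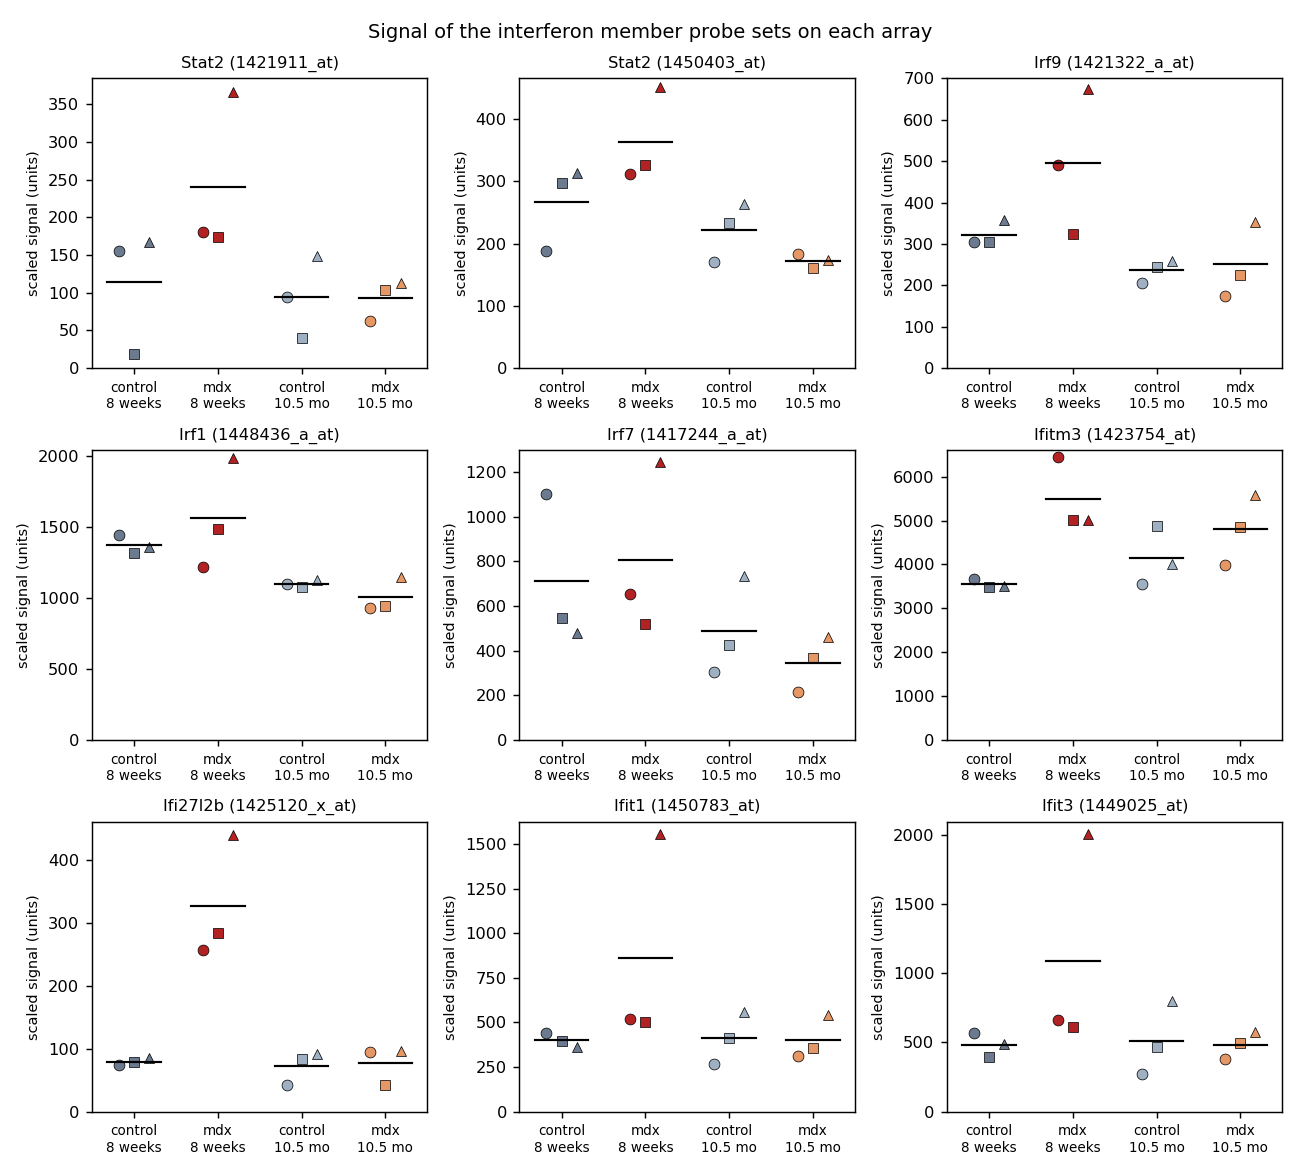
Scaled signal (y axis, units, starting at 0) of each member probe set on the 12 arrays, by group (x axis); circles, squares and triangles are replicates 1, 2 and 3 and bars are group means of 3 arrays. In mdx hearts at 8 weeks the triangle is the highest point in every panel but that of Ifitm3, and Ifi27l2b shows the 3 mdx arrays well above all others.

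Among the factors, no difference at 8 weeks passed the test. Stat2, a subunit of ISGF3, gave 189, 297 and 313 on control arrays and 312, 327 and 451 on mdx arrays by its brighter probe set, an overlapping pair of groups (log2 0.42 ± 0.21, limma adjusted p = 0.314). By its dimmer probe set it gave 155, 18.6 and 168 on control arrays and 180, 174 and 367 on mdx arrays (1.07 ± 0.48, adjusted p = 0.263). That larger value rests on the low control replicate 2, and it was 0.42 without it. The brighter probe set stood at 0.21 without control replicate 1 and 0.26 without mdx replicate 3.

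Irf9, the DNA-binding subunit of ISGF3, gave 306, 305 and 357 on control arrays and 490, 324 and 675 on mdx arrays. The difference was 0.52 ± 0.25 (limma adjusted p = 0.299), and 0.29 without mdx replicate 3. Irf1 gave 1444, 1319 and 1361 on control arrays and 1220, 1488 and 1991 on mdx arrays, which enclosed the controls (0.16 ± 0.17, adjusted p = 0.679). Irf7 gave 1103, 547 and 478 on control arrays and 653, 519 and 1246 on mdx arrays (0.17 ± 0.40, adjusted p = 0.860). Neither kept its sign without mdx replicate 3, when they stood at -0.03 and -0.18, and Irf7 was at -0.05 without control replicate 3.

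Counted over the probe sets, 1 of 9 passed at 8 weeks (Ifi27l2b, and 0 of the other 8), when limma called 2.3% of the 14932 tested, and 1.39% as higher in mdx hearts. All 9 log2 differences were positive, as were 48.3% of all tested. The mdx arrays all lay above the control arrays for 5 of 9, against 9.51% of all tested probe sets. At an unadjusted p below 0.05 there were 5 of 9, against 17.8%. Both counts, like that of positive values, include Ifi27l2b, which entered only through these mdx arrays and is not counted as support. The others in both were Ifitm3, Ifit1, Ifit3 and the dimmer Stat2 probe set. On mdx replicate 3 the signal was the highest of the 6 young hearts for 8 of 9, against 24.2% of all tested. Without that array the median over the 8 genes was 0.31, with 6 positive, and the median over all genes was -0.03. The wider signal range of mdx replicates 1 and 2 is not shared by mdx replicate 3, and with the range as a block Ifi27l2b stood at 1.69 (adjusted p = 0.0132).

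**Figure D3:**
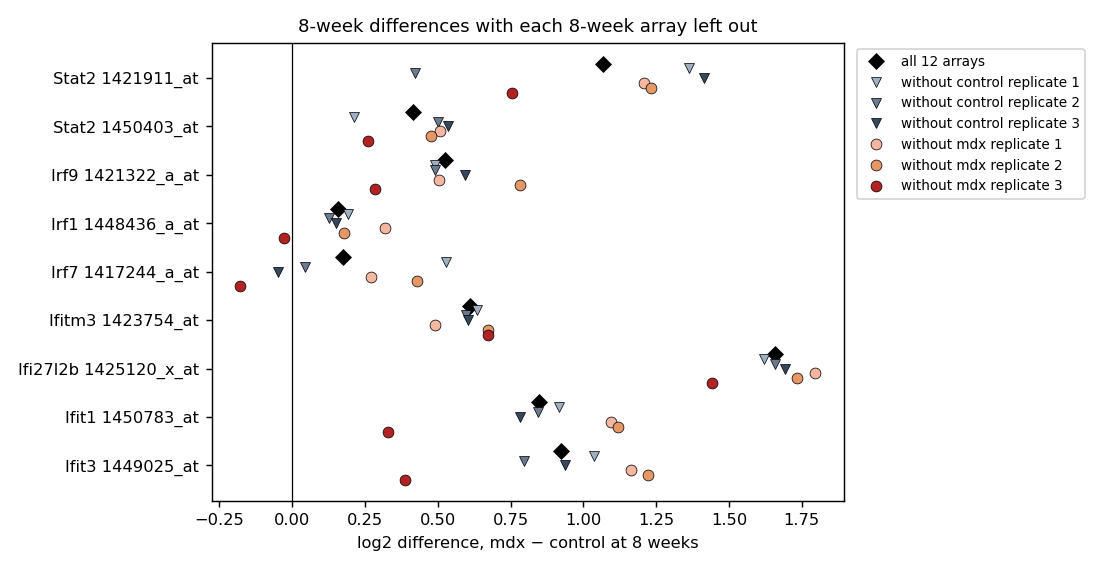
Log2 difference between mdx and control hearts at 8 weeks (x axis) for each member probe set with all 12 arrays (diamonds), without 1 control array (triangles) or without 1 mdx array (circles). Leaving out mdx replicate 3 moves Ifit1 to 0.33 and Ifit3 to 0.39, while Ifi27l2b stays between 1.44 and 1.80.

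In bulk heart RNA, more cells of a type and more RNA per cell cannot be told apart. Lymphocyte markers had a summed signal of 1196 to 1704 units on mdx arrays at 8 weeks and of 894 to 1408 on control arrays, and the highest sum of all 12 arrays was that of mdx replicate 3. Of the 16 lymphocyte genes with a probe set 11 averaged under 100 units. Of the T cell genes, Cd3e and Cd3d never exceeded 51.4 and 18.4, Cd3g reached 126, and Cd8a reached 205 on mdx replicate 3 at 8 weeks. No marker gene was at 0. Macrophage and monocyte markers ranged from 14957 to 16210 on mdx arrays, against 12952 to 15758 on control arrays. Of 5 dendritic cell markers tested 1 passed, when 1.39% of all tested probe sets were called higher in mdx hearts. This was Cd209a (1.10 on the log2 scale, limma adjusted p = 0.0353), while the summed signal of the list overlapped (1786 to 2034 against 1493 to 2167). Atrial markers ranged from 11848 to 12577 on mdx arrays, against 4193 to 6291 on control arrays, groups that did not overlap. Most of that sum was Nppa (9769 to 11201 on mdx arrays), and Myl4 overlapped between the groups. Summed fibroblast markers were higher without overlap (21933 to 24923 against 16985 to 20249), although each of the 8 genes overlapped between the groups. Summed neutrophil markers were lower (718 to 1483 against 1575 to 2129). Of 4 neutrophil genes tested 2 were positive. S100a8 and S100a9 were lower on every mdx array, whereas Csf3r averaged 292 units on mdx arrays and 133 on control arrays. The part of these cell types in the results above was not tested.

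At 10.5 months the same genes were compared in older hearts, and no member passed the test. The groups overlapped for each of the 9 probe sets, whereas 7.51% of all tested probe sets lay wholly higher in mdx hearts and 10.6% wholly lower. By limma 0 of 9 passed, and 0 of 9 had an unadjusted p below 0.05, against 0.0469% and 7.37% of all tested. Positive values were found for 5 of 9 probe sets, against 44.5% of all tested. Of the 8 genes 4 were positive, and their median was 0.00, against -0.02 over all genes.

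Ifi27l2b gave 43.2, 84.5 and 92.2 on control arrays and 95.1, 42.4 and 96.3 on mdx arrays at this age (log2 0.05 ± 0.26, limma adjusted p = 0.977), all below the filter. Ifit1 gave 270, 411 and 559 on control arrays and 311, 357 and 539 on mdx arrays (-0.02 ± 0.37, adjusted p = 0.992). Ifit3 gave 275, 468 and 799 on control arrays and 383, 493 and 577 on mdx arrays (0.02 ± 0.41, adjusted p = 0.993). In both Ifit genes the mdx arrays lay inside the range of the controls. Ifitm3 gave 3551, 4878 and 4001 on control arrays and 3980, 4854 and 5586 on mdx arrays (0.21 ± 0.17, adjusted p = 0.829), the largest positive value among the members.

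Of the factors, Irf7 had the lowest value (-0.43 ± 0.40, limma adjusted p = 0.848), with 304, 425 and 734 on control arrays and 214, 365 and 460 on mdx arrays. Stat2 followed (-0.30 ± 0.21, adjusted p = 0.787), with 170, 233 and 263 on control arrays and 183, 161 and 174 on mdx arrays by its brighter probe set. Irf9 gave 206, 244 and 260 on control arrays and 174, 226 and 352 on mdx arrays (0.03 ± 0.25, adjusted p = 0.985). Irf1 gave 1103, 1076 and 1129 on control arrays and 934, 942 and 1153 on mdx arrays (-0.13 ± 0.17, adjusted p = 0.893). For Irf9 and Irf1 mdx replicate 3 was the highest and the other 2 mdx arrays were lower than or within the controls.

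**Figure D4:**
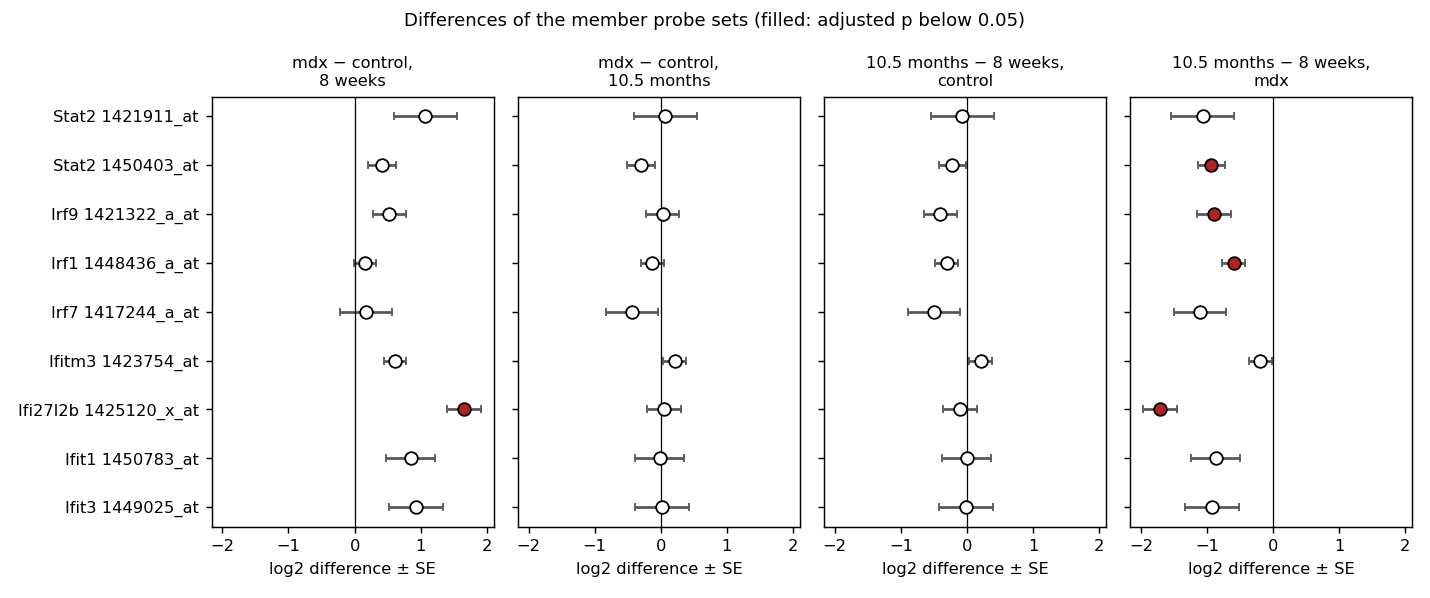
Log2 differences (x axis, points with SE of the fit) of the 9 member probe sets (y axis) in 4 comparisons, with filled points for an adjusted p below 0.05. Ifi27l2b is filled for mdx against control at 8 weeks, no point is filled at 10.5 months or for age in controls, and 4 are filled for age in mdx hearts, all below 0.

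Whether the effect of the mdx genotype differed between the ages was tested as an interaction. All 9 probe sets had a lower mdx effect at 10.5 months than at 8 weeks, but none passed, while 0.154% of all tested did. Over all tested probe sets this difference was positive for 47.6%. The 9 include Ifi27l2b, which entered the test only through the mdx arrays at 8 weeks and is not counted as support. For Ifi27l2b the effect was lower by 1.61 ± 0.36 (log2 -1.61, limma adjusted p = 0.110), and for the brighter Stat2 probe set the value was -0.71 ± 0.29 (adjusted p = 0.351). Those of Ifit1 and Ifit3 were -0.87 ± 0.52 and -0.91 ± 0.58 (adjusted p = 0.539 and 0.562). The mdx effect averaged over both ages passed for none of the members, and for 0.201% of all tested probe sets. It was 0.86 ± 0.18 for Ifi27l2b (adjusted p = 0.0894) and 0.41 ± 0.12 for Ifitm3 (adjusted p = 0.179). Of the others, Irf7 was at -0.13 ± 0.28 and Irf1 at 0.01 ± 0.12.

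With age, signals fell in mdx hearts for the ISGF3 subunits Stat2 and Irf9, for Irf1 and for Ifi27l2b. This comparison uses the same 8-week mdx arrays as the one above and is no independent view of them. Ifi27l2b fell by 1.71 ± 0.26 on the log2 scale (limma adjusted p = 0.00259), from 326 ± 99.2 to 77.9 ± 30.8 units (mean ± SD, n = 3). It again entered the test only through its high group, and in the fit with no filter its adjusted p was 0.00537. The brighter Stat2 probe set fell by 0.94 ± 0.21 (adjusted p = 0.0149), from 363 ± 76.5 to 172 ± 11.1, and all 3 older hearts lay below all 3 young ones. Irf9 fell by 0.90 ± 0.25 (adjusted p = 0.0383), from 496 ± 176 to 251 ± 91.3, with overlap, because the older mdx replicate 3 (352) exceeded the young mdx replicate 2 (324). Irf1 fell by 0.60 ± 0.17 (adjusted p = 0.0428), from 1566 ± 392 to 1010 ± 125, without overlap.

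In mdx hearts 4 of 9 probe sets were called lower with age, 3 of them other than Ifi27l2b, when 5.97% of all tested were. Without overlap 6 of 9 were lower, against 15.5%. These 6 also include Ifi27l2b, which entered only through its high group. The others had values of -1.11 ± 0.40 for Irf7 (limma adjusted p = 0.0824), -1.07 ± 0.48 for the dimmer Stat2 probe set (adjusted p = 0.151), -0.92 ± 0.41 for Ifit3 (0.15), -0.87 ± 0.37 for Ifit1 (0.133) and -0.20 ± 0.17 for Ifitm3 (0.481). Leaving out each of the 12 arrays in turn, Irf1 kept its call in only 2 fits, those without the young control replicate 2 or the young mdx replicate 1 (adjusted p from 0.0514 to 0.128 in the others). Irf9 lost its call without the young mdx replicates 1 or 3, the older control replicates 1 or 2, or the older mdx replicates 1 or 2 (adjusted p from 0.0512 to 0.112). Without the young mdx replicate 3 their values were -0.66 for Irf9 and -0.41 for Irf1, and Ifit1 and Ifit3 then stood at -0.35 and -0.39. Stat2 lost its call only without the older mdx replicate 2 (-0.89, adjusted p = 0.0572), among the arrays left out in turn, and Ifi27l2b kept its call without any 1 of them.

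Cell type markers moved in the same comparison. The fibroblast genes Lum, Dpt and Mfap5 rose with age in mdx hearts (1.17 ± 0.19, 1.05 ± 0.17 and 1.27 ± 0.23, limma adjusted p = 0.00432, 0.00425 and 0.00735), and the myocyte calcium channel gene Ryr2 (-0.92 ± 0.21, adjusted p = 0.0178) and the endothelial gene Flt1 (-0.60 ± 0.18, adjusted p = 0.0472) fell. These were the called genes of their lists, when 1706 of the 14932 probe sets tested were called in either direction and 5.97% as lower. The median over all tested genes was -0.01. Of 8 fibroblast genes 5 were positive (median 0.165), of 8 endothelial genes 3 (median -0.274) and of 9 ventricular genes 1 (median -0.315). The atrial genes Sln and Myl7 were lower on every older mdx array but did not pass (-2.55 ± 1.03 and -1.58 ± 0.81, adjusted p = 0.119 and 0.207). Nppa, also on the atrial list, was at 0.48 ± 0.31 (adjusted p = 0.323). Lymphocyte markers summed to 973 to 1191 units on the older mdx arrays and to 1196 to 1704 on the young ones, ranges that nearly met. In controls the sums overlapped (992 to 1349 at 10.5 months and 894 to 1408 at 8 weeks), and 11 of the 16 genes averaged under 100 units. At 10.5 months Sln stood at -2.85 ± 1.03 between mdx and control hearts (adjusted p = 0.631), with atrial sums of 4926 to 22195 on control arrays and 11587 to 18087 on mdx arrays. The part of these cell types was not tested.

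Control hearts had no member called with age, against 0.147% of all tested probe sets, and 8 of 9 values were negative, with 1 positive against 52.0% of all tested. Irf9 and Irf1 were lower in every older control than in every young one (-0.40 ± 0.25 and -0.31 ± 0.17, limma adjusted p = 0.564 and 0.510), which made 2 of 9, against 10.5% of all tested. Ifi27l2b was at -0.11 ± 0.26, Ifit1 at -0.01 ± 0.37 and Ifit3 at -0.02 ± 0.41. Ifitm3 alone was positive (0.21 ± 0.17, adjusted p = 0.679). The falls seen in mdx hearts were not shown to differ from these values in controls, since that difference is the interaction given above.

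The rest of the pathway was counted upstream to downstream by each gene's brightest probe set. With age in mdx hearts limma called 1706 of the 14932 probe sets tested, and 5.97% of all tested as lower. The single calls with age named below stand beside these shares and are not read as results about their lists. Of the 9 interferon ligands with a probe set only Ifnb1, which encodes interferon beta, averaged over 100 units. It gave 106, 167 and 124 on control arrays and 208, 141 and 173 on mdx arrays at 8 weeks (0.33 ± 0.18, limma adjusted p = 0.367). In mdx hearts it fell with age by 0.60 ± 0.18 (adjusted p = 0.0471), at levels close to the filter. Of 8 receptor and kinase genes 4 were positive at 8 weeks, with a median of 0.00, and none was called. Jak2, the kinase of the type II receptor, came nearest. By its brighter probe set it gave 420, 430 and 402 on control arrays and 620, 580 and 587 on mdx arrays (0.48 ± 0.13, adjusted p = 0.0747), without overlap, and fell with age in mdx hearts by 0.44 ± 0.13 (adjusted p = 0.0473). Its dimmer probe set stood at -0.25 ± 0.19 at 8 weeks (adjusted p = 0.541).

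Of 4 other STAT genes tested none was called at 8 weeks, where Stat3 had the smallest p (0.27 ± 0.18, limma adjusted p = 0.479). Stat5b fell with age in mdx hearts (-0.66 ± 0.17, adjusted p = 0.0246), and so did 1 of 3 probe sets of Stat3 (-1.10 ± 0.17, adjusted p = 0.00263), whose brightest did not pass (-0.55 ± 0.18, adjusted p = 0.0673). By brightest probe set 1 of the 4 was called lower, against 5.97% of all tested. Of 5 other IRF genes 4 were positive at 8 weeks (median 0.34), and Irf5, which acts downstream of Toll-like receptors, had the smallest p (0.43 ± 0.19, adjusted p = 0.247). Irf3, the factor that starts interferon beta transcription, gave values that depended on the probe set. A dim one fell at 8 weeks (-1.64 ± 0.16, adjusted p = 0.00100) from 261, 302 and 300 to 88.2, 56.0 and 70.2, whereas the brightest stood at -0.20 ± 0.14 (adjusted p = 0.498) and a further one at -0.13 ± 0.21 (adjusted p = 0.792). For that dim probe set the interaction with age also passed (1.62 ± 0.23, adjusted p = 0.0196).

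Among 11 feedback regulators none was called at 8 weeks (median -0.08). Usp18, which removes ISG15 from proteins and dampens the type I receptor, had the smallest p (0.62 ± 0.30, limma adjusted p = 0.294), with 296, 243 and 265 on control arrays and 425, 254 and 712 on mdx arrays. Socs2 and the phosphatase gene Ptpn2, 2 of the 11, rose with age in mdx hearts (0.80 ± 0.17 and 1.26 ± 0.38, adjusted p = 0.0140 and 0.0465). There 1706 of 14932 probe sets were called in either direction, and those called lower were 5.97% of all tested. Of 11 sensors and adaptors 10 were positive at 8 weeks (median 0.16) and none was called. Zbp1, a sensor of Z-form nucleic acid, came nearest (0.76 ± 0.29, adjusted p = 0.186), with 169, 110 and 90.4 on control arrays and 189, 195 and 305 on mdx arrays. Sting1, the adaptor of cytosolic DNA sensing, fell with age in mdx hearts by 0.72 ± 0.19 (adjusted p = 0.0273), and 1 of 2 probe sets of Tlr4 rose (0.88 ± 0.19, adjusted p = 0.0135). By brightest probe set 1 of the 11 was called lower, against 5.97% of all tested.

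Of 30 other antiviral effectors 22 were positive at 8 weeks, with a median of 0.12. Among them Cxcl10 gave 50.5, 60.7 and 85.0 on control arrays and 101, 92.0 and 489 on mdx arrays. Its mean of 228 units on these mdx arrays rests largely on mdx replicate 3. In the other groups it averaged 61.5 to 65.4, below the filter. Of the 30, 1 was called, when 2.3% of all tested probe sets were. This was Trim30a, a TRIM family gene, which gave 351, 390 and 282 on control arrays and 636, 595 and 584 on mdx arrays (0.78 ± 0.17, limma adjusted p = 0.0383). Its other probe set did not pass (0.22 ± 0.28, adjusted p = 0.729). Uba7, the enzyme that activates ISG15, and Ifitm1 fell with age in mdx hearts (-1.01 ± 0.29 and -0.74 ± 0.21, adjusted p = 0.0392 and 0.0409), while Ifitm2 rose (0.92 ± 0.18, adjusted p = 0.0100). By brightest probe set 2 of 30 were thus called lower and 1 higher, when 5.97% of all tested were called lower. They are not read as a result about this list. Of the 3 probe sets of Rsad2, which encodes viperin, the 2 dimmer ones fell (-1.04 ± 0.20 and -0.99 ± 0.17, adjusted p = 0.00986 and 0.00460) and the brightest did not pass (-0.23 ± 0.20, adjusted p = 0.456). A dimmer probe set of Trim21 fell as well (-0.56 ± 0.17, adjusted p = 0.0472).

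At 10.5 months no gene of these lists was called between mdx and control hearts. The interferon-inducible GTPases had 3 of 7 genes called higher at 8 weeks (median 0.70) against 1 of the 8 members (median 0.57) and 1.39% of all tested probe sets. The member called, Ifi27l2b, entered only through the mdx arrays of this age and is not counted as support, and it is also part of the members' median. The GTPase genes called were Iigp1 (1.65 ± 0.24, limma adjusted p = 0.00596), Irgm2 (1.45 ± 0.29, 0.0292) and Igtp (1.23 ± 0.24, 0.0263). With age in mdx hearts 5 of the 7 GTPase genes fell, against 5.97% of all tested. They were Iigp1, Irgm2 and Igtp (-2.91, -2.95 and -2.62), Irgm1 (-0.95) and Gbp7 (-1.25), and a dimmer probe set of Gbp2 fell too (-1.69). The interaction with age passed for Iigp1 (-2.37) and Igtp (-1.99), and it passed for 0.154% of all tested. At 10.5 months all 7 GTPase genes were negative (median -0.71), while the members' median was 0.00.

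**Figure D5:**
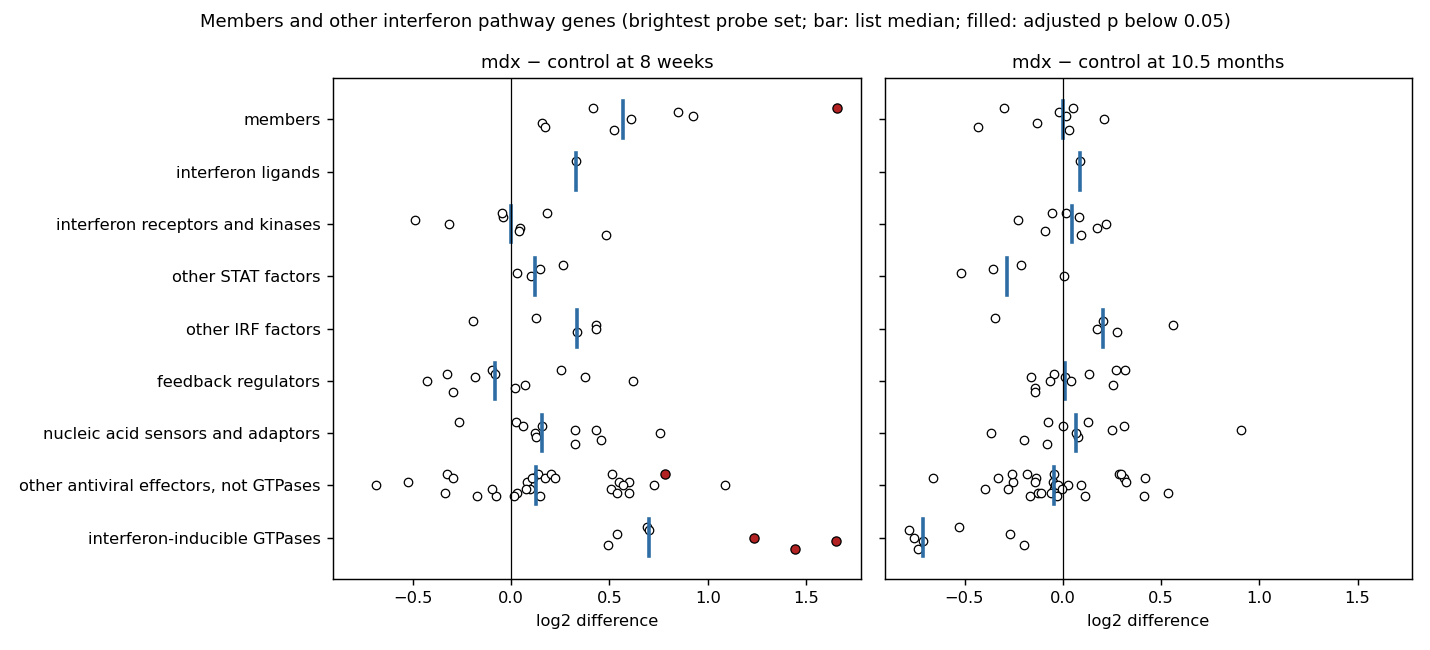
Log2 difference between mdx and control hearts (x axis) at 8 weeks (left) and 10.5 months (right) for the members and 8 lists of other interferon pathway genes (y axis); each point is a gene by its brightest probe set, blue bars are list medians and filled points have an adjusted p below 0.05. The members' median is 0.57 on the left and 0.00 on the right, and on the right no point is filled.

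The members varied together over the 12 arrays to different degrees. Over the 28 pairs of the 8 genes, Pearson's r of log2 signal had a median of 0.76, and ran from 0.04 (Irf1 with Ifitm3) to 0.97 (Ifit1 with Ifit3). Without mdx replicate 3 at 8 weeks the median was 0.57, and Ifit1 with Ifit3 stood at 0.92. The mean of the standardized members was highest on mdx replicate 3 at 8 weeks (2.02), followed by mdx replicates 1 and 2 at that age (0.75 and 0.52). It was lowest on control replicate 1 and mdx replicate 1 at 10.5 months (-1.06 and -0.97). The 5 genes whose signal over the 12 arrays was most like that mean, out of 8844 compared, were Emp2 (r = 0.94), Zfp868 (0.93), the GTPase gene Irgm1 (0.92), Krt32 (0.92) and Pikfyve (0.91). Emp2 gave 795, 731 and 807 on control arrays and 1184, 1162 and 1497 on mdx arrays at 8 weeks, and 576 to 835 at 10.5 months. Zfp868 averaged 173 units on the mdx arrays at 8 weeks and 72.5 to 86.9 in the other groups, below the filter. It entered only through its high group, as did Ifi27l2b, which is part of the members' mean. Without mdx replicate 3 at 8 weeks the 5 correlations ran from 0.80 to 0.92. These values describe the 12 arrays, which share the 4 groups, and carry no test.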

How the data were processed

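Total RNA of mouse heart was measured on 12 Affymetrix arrays. Each deposited value is a linear intensity of 1 probe set on 1 array. The authors had scaled the arrays to a common level, as the files show: trimmed means (2% off each end) ran from 1500.6 to 1500.9. The labels' protocols name only a standard Affymetrix procedure. The summarising software is not given in the sources used here, nor are detection calls. Groups and replicate numbers came from the sample titles. Platform annotation gave 1 gene to 20393 probe sets, several to 691 and none to 1606, and the gene of 20364 of the first was found in RefSeq (GRCm38.p6).

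Signals were rescaled so that each trimmed mean was 500. The 64 control probe sets were left out, and 14932 with a mean of at least 100 were tested as log2(signal + 32) in R 4.3.3 with limma 3.58.1 (lmFit, eBayes, a mean per group, all 12 arrays, 8 residual and 5.2 prior degrees of freedom). Fold changes on this scale understate those of dim genes. Benjamini-Hochberg adjustment ran over all tested probe sets, with calls below 0.05. A gene is represented by its brightest tested probe set, and all probe sets of the members are given. The fit was tested on simulated data. Alternatives were the offset, the filter, quantile normalization, other arrays in the fit, blocks, an intensity trend, array weights and leaving out each array. Replicate numbers did not pair the samples (correlations of deviations from -0.13 to 0.14 over 18 same-numbered pairs). Members, lists, markers and alternatives were chosen with earlier results of these data known. Named genes are the members, the called genes of each list or else that with the smallest p at 8 weeks, and the 5 genes most like the members' mean. Relatives of members (Ifi27l2a, Ifit2), Cxcl10 and markers were named outside this rule, after their values were seen. The number of arrays limits the precision. An item withheld for evaluation is not reported here.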

Additional observations from a re-analysis of the deposited data

How the results depend on the processing

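Ifi27l2b passed the filter only through the mdx arrays at 8 weeks, and 20 of the 21 alternatives that called it at that age share this limit (log2 1.42 to 1.81, adjusted p = 0.00539 to 0.0381). The fit with no filter does not (adjusted p = 0.0147). With a filter of 200 units it was not tested, and 0 member probe sets were called instead of 1. In mdx hearts with age the 4 calls became 2 with no filter and 2 with only the groups compared in the fit, and ran from 1 to 4 without single arrays. Calls fell to 2 without the young mdx replicate 3, the older control replicates 1 or 2 or the older mdx replicate 1, and to 1 without the older mdx replicate 2. Array weights added 1 call for the difference between ages (Ifi27l2b, -1.79, adjusted p = 0.0474). Without single arrays the averaged mdx effect had 0 to 1 calls, the 1 being Ifi27l2b without the older mdx replicate 2 (adjusted p = 0.0476). At 10.5 months and for age in controls 0 were called in all 22 alternatives. With the replicate number as a block the counts of member probe sets stayed at 1 at 8 weeks and 4 for age in mdx hearts, and no call of a member changed.

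Of 54 values 14 changed sign in some alternative, and none of these was called. With array weights Irf9 and Ifi27l2b at 10.5 months stood at -0.030 and -0.17, Irf1 averaged over ages at -0.028 and Irf7 at 8 weeks at -0.021. Ifit1 at 10.5 months was 0.031 after quantile normalization and 0.084 with a block for wide-range arrays. Without single arrays the values at 10.5 months ran from -0.29 to 0.38 (dimmer Stat2 probe set), -0.22 to 0.23 (Irf9), -0.17 to 0.31 (Ifi27l2b), -0.27 to 0.21 (Ifit1) and -0.34 to 0.38 (Ifit3). At 8 weeks they ran from -0.027 to 0.32 (Irf1) and -0.18 to 0.53 (Irf7). Averaged over ages they ran from -0.043 to 0.12 (brighter Stat2 probe set), -0.078 to 0.095 (Irf1) and -0.30 to 0.049 (Irf7). For age in controls they ran from -0.71 to 0.29 (dimmer Stat2 probe set), -0.24 to 0.12 (Ifi27l2b), -0.24 to 0.25 (Ifit1) and -0.38 to 0.34 (Ifit3). The cause was not tested.

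Counts over all probe sets moved more. At 8 weeks there were 343, from 42 to 308 without single arrays and from 23 (only the 8-week arrays) to 454 (quantile normalization), with 176 under the replicate block. At 10.5 months there were 7, from 1 to 12 without single arrays and from 3 to 110 otherwise. For age in mdx hearts there were 1706, from 598 to 1883 and from 565 to 1965. For age in controls there were 22 (7 to 35 and 7 to 270), for the difference between ages 23 (0 to 31 and 3 to 141) and for the average 30 (12 to 60 and 25 to 100).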
